A study of Mus musculus with 140 samples.

Results

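The serum amyloid A family comprised 3 of the 34255 genes in the count table, Saa1, Saa2 and Saa3, which were taken by gene symbol. Their RNA was followed in the kidneys of 28 mice after cecal ligation and puncture (CLP), an operation in which the cecum is tied and pierced so that gut contents leak and cause sepsis. The 7 groups held 4 mice each and were CLP mice at 4, 24 and 72 h, sham-operated mice at the same times, and healthy mice labelled 0 h. All mice were male wild-type animals of the strain C57BL6/OlaHsd, and their age is not given in the labels. From every mouse, RNA of whole kidney and of 4 laser-microdissected vessel compartments of the cortex (glomeruli, arterioles, post-capillary venules and peritubular capillaries) was sequenced from the 3′ end of transcripts with Lexogen QuantSeq, which gave 140 libraries. The labels number the mice within each group, so the replicates were separate animals.

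Serum amyloid A proteins are small apolipoproteins of the acute-phase response. Saa1 and Saa2 encode the circulating forms, which the liver secretes in inflammation and which travel on high-density lipoprotein. They are also the precursors of the fibrils of AA amyloid, a disease in which the kidney is a main organ of deposit. Saa3 encodes a form made largely outside the liver in mice, with macrophages, adipocytes and epithelia among its known sources. Interleukin 6, interleukin 1 and tumour necrosis factor drive transcription of the family through the factors C/EBP, STAT3 and NF-kB. Secreted serum amyloid A is known to act on cells through Fpr2, Tlr2, Cd36 and other receptors.

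The 3 genes lie in one cluster of 42.3 kb on chromosome 7 of the build GRCm38, between Saal1 and Hps5, together with Saa4 and a pseudogene. In GENCODE M21, Saa3 (ENSMUSG00000040026) spans chr7:46711998-46715700 on the minus strand, Saa1 (ENSMUSG00000074115) chr7:46740497-46742980 on the minus strand, and Saa2 (ENSMUSG00000057465) chr7:46751790-46754313 on the plus strand. Each has 4 exons. The transcripts of Saa1 and Saa2 were 93.9% identical, and 92.4% over the last 300 bases, where 3′ libraries give their reads. Only 9.6% of 50-base windows in those bases were shared exactly, so most such windows told the 2 genes apart. How the authors' counting treated reads that match both genes is not given in the sources used here, and the split between Saa1 and Saa2 is therefore uncertain. Saa3 was 64.3% identical to Saa1 and 63.3% to Saa2, with no 50-base window shared with Saa1.

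The stretch from 250 to 51 bases upstream of each gene's start in RefSeq is shown because the regulators of the family act there and because the 3 genes were measured together below. The sequences are from RefSeq (GRCm38.p6), run 5′ to 3′ along the gene's strand, and lie at chr7:46743031-46743230 (minus) for Saa1, chr7:46751583-46751782 (plus) for Saa2 and chr7:46715727-46715926 (minus) for Saa3. RefSeq's start of Saa1 is the GENCODE start given above, while its starts of Saa2 and Saa3 lie inside the GENCODE genes, so that their windows end nearer to the GENCODE starts. Capitals mark matches, on either strand, to the C/EBP motif TTGCNNAA and to the NF-kB consensus.
Saa1: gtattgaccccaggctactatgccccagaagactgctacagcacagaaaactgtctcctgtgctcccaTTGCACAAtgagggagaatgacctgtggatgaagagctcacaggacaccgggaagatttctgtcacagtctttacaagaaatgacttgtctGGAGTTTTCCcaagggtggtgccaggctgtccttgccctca
Saa2: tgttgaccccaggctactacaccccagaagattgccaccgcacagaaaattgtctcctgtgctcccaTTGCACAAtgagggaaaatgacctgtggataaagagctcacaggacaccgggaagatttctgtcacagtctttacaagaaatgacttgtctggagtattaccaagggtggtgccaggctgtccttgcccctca
Saa3: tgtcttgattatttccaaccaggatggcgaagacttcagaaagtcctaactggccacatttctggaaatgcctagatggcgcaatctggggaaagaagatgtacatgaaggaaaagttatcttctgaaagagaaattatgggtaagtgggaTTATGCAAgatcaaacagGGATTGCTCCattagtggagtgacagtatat
The C/EBP match began 182 bases upstream of the RefSeq start in Saa1, 183 in Saa2 and 99 in Saa3, where it lay on the opposite strand. The NF-kB match began 91 bases upstream in Saa1 and 81 in Saa3, and Saa2 had none in this window. The STAT motif TTCNNNGAA was in none of the 3 windows. No matches overlapped. Among 32851 mouse promoter windows of the same length, 8.11% held the C/EBP motif, 18.5% the NF-kB consensus and 5.76% the STAT motif. The windows of Saa1 and Saa2 were 93.5% identical, against 52.3% for Saa1 and Saa3. A match describes letters in the window and is not a measured binding site.

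Library totals ran from 4.24 M to 18.3 M counts. In healthy mice the markers of the labelled compartments were in place for glomeruli (summed podocyte markers 8938 to 10848 CPM, the counts of a gene per M counts of the library, against 224 to 241 in whole kidney) and arterioles (smooth muscle and renin cell markers 12561 to 28205 CPM, against 222 to 272). In peritubular capillary libraries the endothelial markers, at 334 to 1214 CPM, overlapped those of whole kidney at 445 to 507 CPM, and proximal tubule markers were higher, at 64148 to 115824 against 39651 to 40915 CPM. No list held markers specific to post-capillary venules, so the identity of that compartment was not checked in this way. Fewer genes were detected in microdissected libraries at 24 and 72 h than at 4 h and in healthy mice, for example 2949 to 9816 against 10950 to 13327 in peritubular capillaries. The 3 sparsest were peritubular libraries of CLP mice 1, 3 and 4 at 72 h, with 2949 to 4020 detected genes. Levels below are CPM with library sizes scaled by the trimmed mean of M-values, and in bulk RNA a change in the number of cells of a type cannot be told apart from a change in RNA per cell.

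In whole kidney, Saa3 rose after CLP at every time examined, and Saa1 and Saa2 rose at 24 h. At 4 h, Saa3 stood at 51.9, 29.2, 52.8 and 25.8 CPM in the CLP mice, against 0.109, 1.896, 0.620 and 1.16 CPM in the sham mice. Each CLP kidney was far above each sham kidney. The means were 39.9 ± 14.4 and 0.946 ± 0.765 CPM (SD, n = 4 each), a log2 fold change of 5.34 ± 0.79 (SE; edgeR quasi-likelihood test, Benjamini-Hochberg adjusted p = 0.000254 over all genes tested). At this time 1.69% of 14936 genes rose and 4.86% had all CLP values above all sham values.

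At 24 h Saa3 reached its highest level in the time course, with 401, 1243, 800.4 and 693 CPM in the CLP mice, against 3.01, 0, 0.708 and 0.256 CPM in the sham mice. CLP mouse 2 was highest and mouse 1 lowest of its group, and all 4 were above every sham kidney. The means of 784 ± 349 and 0.994 ± 1.38 CPM gave a log2 fold change of 9.62 ± 0.87 (edgeR, adjusted p = 2.30e-07), where 3.04% of genes rose and 4.12% had all CLP values above all sham values.

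At 72 h Saa3 was still high but uneven, at 69.6, 519.7, 59.3 and 227 CPM in the CLP mice, against 0.268, 0.779, 0.872 and 0.537 CPM in the sham mice. CLP mouse 2 held the highest value and mice 1 and 3 the lowest, and the groups did not overlap. The means were 219 ± 215 and 0.614 ± 0.270 CPM, and the log2 fold change was 8.50 ± 0.90 (edgeR, adjusted p = 1.51e-06). Here 1.74% of genes rose and 4.71% were fully apart in this direction. All 3 calls of Saa3 held when any single library was left out.

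Saa1, the main circulating form, was nearly absent from sham kidneys and appeared in quantity only in the CLP kidneys. At 24 h it stood at 22.4, 529, 258 and 977 CPM in the CLP mice and had no count in any of the 4 sham mice. The CLP values differed widely among themselves, with mouse 4 highest and mouse 1 lowest. Against a floor of 3 counts per sham library, which covers counting error only, the CLP mean of 447 ± 410 CPM was at least 1279.5-fold higher (edgeR, adjusted p = 0.000466). At 4 h the CLP mice had 6.83, 1.08, 0.587 and 0.568 CPM, against 0.543, 0, 0 and 0 CPM in the sham mice, which did not pass the test (log2 fold change 3.87 ± 2.29, adjusted p = 0.663). The 4 h groups did not overlap, as for 4.86% of genes in the same direction. At 72 h the CLP mice had 3.13, 12.2, 0.168 and 33.9 CPM and the sham mice none, at least 28.8-fold higher on the mean and not called (edgeR, adjusted p = 0.0779).

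Saa2, the second circulating form, followed the same order of times. At 24 h it had 5.08, 53.0, 54.6 and 109.9 CPM in the CLP mice, against 0.241, 0, 0 and 0 CPM in the sham mice. As for Saa1, mouse 4 was highest and mouse 1 lowest, and the groups did not overlap, as for 4.12% of genes in the same direction. The log2 fold change was 9.58 ± 1.74 (edgeR, adjusted p = 0.00298), with means of 55.7 ± 42.9 CPM in CLP and 0.0602 CPM in sham kidneys. At 4 h the CLP mice had 2.24, 0.108, 4.21 and 0.568 CPM and the sham mice none, at least 5.56-fold higher and not called (adjusted p = 0.377, edgeR). At 72 h only CLP mice 2 and 4 had counts, at 15.3 and 10.7 CPM, so the CLP group overlapped the sham group, which had none (edgeR, adjusted p = 0.0761).

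**Figure D1:**
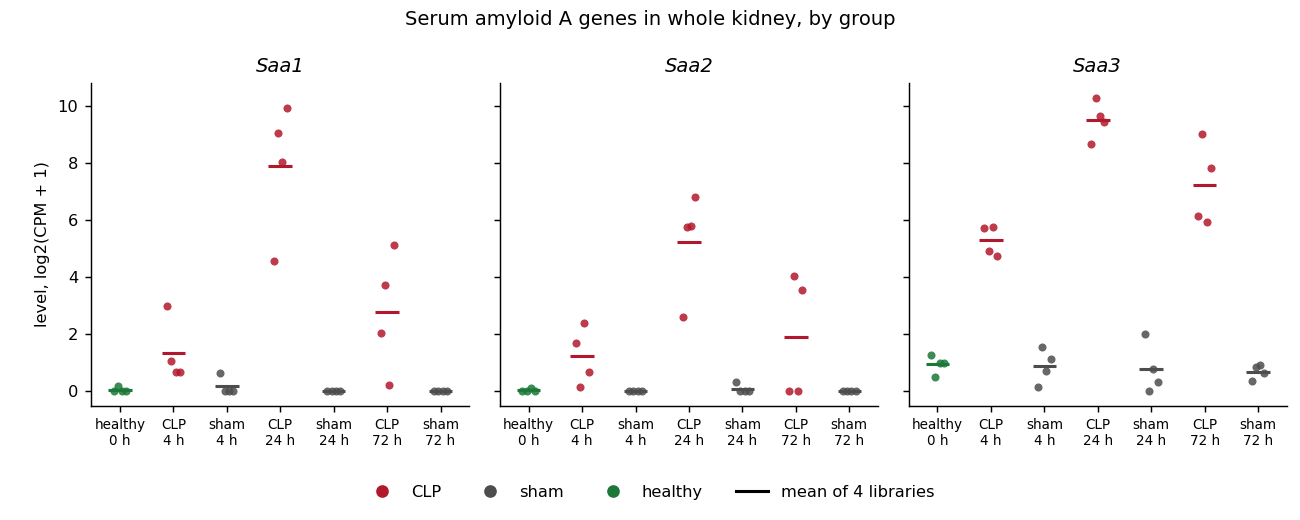
Levels of Saa1, Saa2 and Saa3 in whole kidney, as log2(CPM + 1), with 1 point per mouse, a line for the mean of 4 libraries, and groups on the horizontal axis by condition and hour. The CLP points of Saa3 lie above all sham points at 4, 24 and 72 h, and those of Saa1 and Saa2 reach their highest levels at 24 h.

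Surgery alone was compared through the sham mice. None of the 3 genes passed between sham and healthy whole kidney at 4, 24 or 72 h in the edgeR test, where 0.937%, 6.41% and 8.44% of genes did. The lowest unadjusted p among these 9 tests was 0.599, and DESeq2 gave no call either. For Saa1 and Saa2 no sham or healthy whole kidney library held more than 5 counts. Their tests therefore had too few counts to decide whether surgery changed them. Healthy kidneys held 1.42, 0.399, 0.981 and 0.954 CPM of Saa3, which lay in the range of the 4 h sham values. In the same kidneys Saa1 had 0.133 CPM in 1 mouse and Saa2 0.0755 CPM in 1 mouse, 1 count each, and none elsewhere.

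Between times in the CLP mice, all 3 genes were higher at 24 h than at 4 h. The log2 differences were 7.71 ± 1.28 for Saa1 (edgeR, adjusted p = 0.000484), 4.99 ± 1.15 for Saa2 (adjusted p = 0.00529) and 4.30 ± 0.63 for Saa3 (adjusted p = 3.91e-05). Here 12.6% of genes were higher, so a call alone was common in this comparison. From 24 to 72 h, Saa1 fell by 5.15 ± 1.11 on the log2 scale (edgeR, adjusted p = 0.0145), among 2.41% of genes that were lower, although the highest 72 h mouse, at 33.9 CPM, exceeded the lowest 24 h mouse, at 22.4 CPM. Saa2 and Saa3 had log2 differences of -3.04 ± 1.03 and -1.84 ± 0.57, which did not pass (edgeR, adjusted p = 0.133 and 0.0758). The Saa3 difference passed without CLP mouse 2 of 72 h (adjusted p = 0.00713) or CLP mouse 1 of 24 h (adjusted p = 0.0434). Mice of different times were different animals. Tested as a change of the CLP effect over its own sham group, the difference between 24 and 4 h was 4.27 ± 1.29 for Saa3 and did not pass (edgeR, adjusted p = 0.106; 1.84% of genes did). It passed without sham mouse 1 of 24 h (adjusted p = 0.0468).

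Markers of other cells moved beside these values. Summed over 11 neutrophil markers, the 4 h kidneys held 87.2 to 165 CPM in CLP mice and 9.56 to 25.9 CPM in sham mice. At 24 h the sums were 90.7 to 152 CPM in CLP mice and 8.19 to 15.1 CPM in sham mice. At 72 h they were 238 to 468 CPM in CLP mice and 2.79 to 6.10 CPM in sham mice. The 10 monocyte and macrophage markers summed to 299 to 411 CPM in CLP and 195 to 273 CPM in sham kidneys at 24 h, and to 509 to 741 and 189.9 to 245 CPM at 72 h. The 8 proximal tubule markers summed to 25173 to 32435 CPM in CLP and 42188 to 50045 CPM in sham kidneys at 24 h. For 8 hepatocyte markers the 24 h sums were 142 to 334 CPM in CLP and 56.7 to 64.3 CPM in sham kidneys, with counts for 7 of them in each group and none for Cyp3a11. Apoc3 and Apoh of that list rose, by 2.52 and 2.32 on the log2 scale, and albumin had 1.50, 2.93, 5.51 and 2.11 CPM in CLP and 4.34, 4.17, 2.53 and 2.43 CPM in sham kidneys. Adipocyte markers overlapped, at 86.8 to 636 CPM in CLP and 8.19 to 727 CPM in sham kidneys. The part of these cells in the Saa values was not tested.

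The rest of the cluster gave a comparison with genes on the same stretch of chromosome. Saa4, which encodes the form present in blood without inflammation in humans, had 4.62, 15.5, 15.5 and 44.7 CPM in CLP kidneys at 24 h, against 1.08, 0.347, 1.31 and 0.769 CPM in sham kidneys. Mouse 4 was again highest and mouse 1 lowest. Its log2 fold change was 4.47 ± 0.78 (edgeR, adjusted p = 0.000501). Both neighbours outside the cluster failed the test at 24 h, with log2 fold changes of -0.24 for Saal1 (adjusted p = 0.706) and -0.36 ± 0.12 for Hps5 (edgeR, adjusted p = 0.0970).

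**Figure D2:**
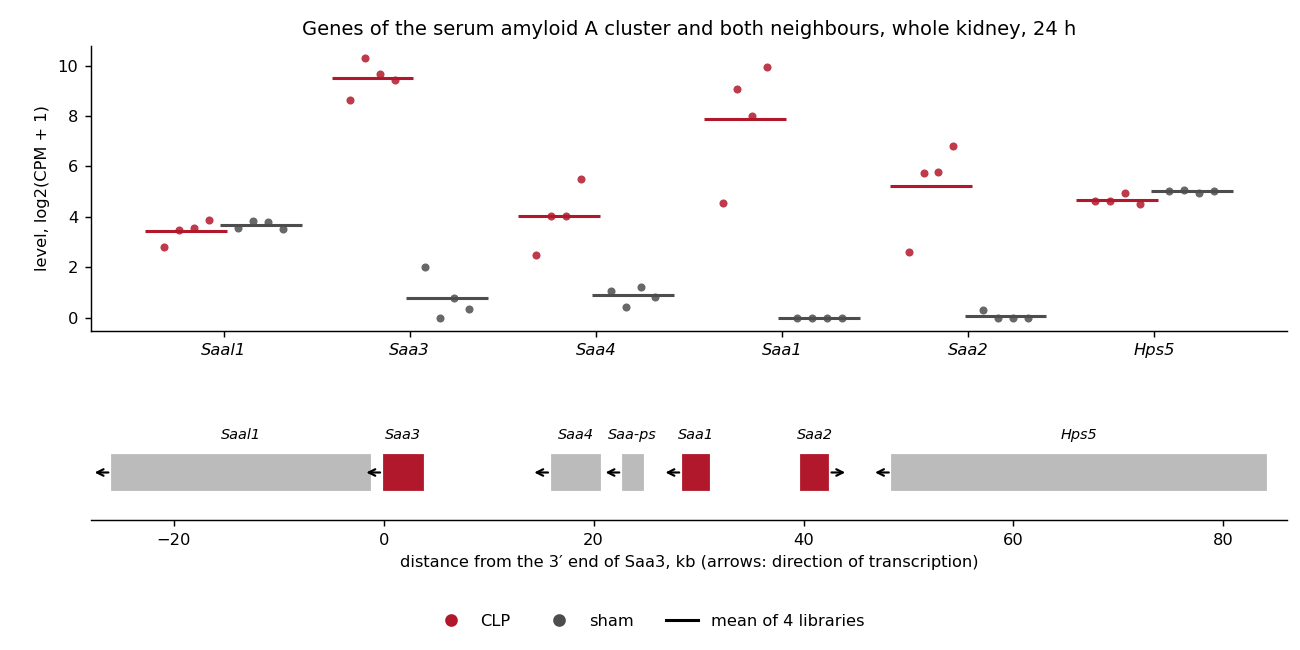
Map of the serum amyloid A cluster and its 2 neighbours (distance in kb from the 3′ end of Saa3, arrows for the direction of transcription) with the 24 h whole kidney levels of each gene as log2(CPM + 1), CLP points left of sham points. The CLP points of Saa1, Saa2, Saa3 and Saa4 lie above all sham points, as for 4.12% of genes tested. For Saal1 the CLP and sham points overlap. Hps5, which did not pass the test, had 21.8 to 29.4 CPM in CLP and 29.92 to 32.5 CPM in sham mice.

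In the microdissected compartments, Saa3 was present in all 16 CLP libraries of 4 h and all 16 of 24 h, but at 4 h it also had counts in all 16 sham libraries, as in all 16 libraries of healthy mice. At 24 h only 2 of 16 sham libraries had a count. It passed the test at 24 h in post-capillary venules and glomeruli. In venules, the small veins through which leukocytes leave the blood, the CLP mice had 223, 429.7, 489 and 64.7 CPM and the sham mice none (edgeR, adjusted p = 0.00557). Only 0.0222% of 13530 genes rose there, and 1.29% were fully apart in this direction. The call was lost without any 1 of sham replicates 1, 2 and 3. The CLP mean was 1229-fold above a floor of 3 counts per sham library (0.245 CPM). Healthy venules averaged 3.18 CPM and 4 h sham venules 2.65 CPM, above that floor, and fewer genes were detected at 24 h. Folds over this floor in microdissected libraries are therefore not lower bounds on the change.

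In glomeruli, the capillary tufts that filter blood, Saa3 at 24 h stood at 37.8, 186, 44.4 and 184 CPM in CLP mice and at 0 in all sham mice, a CLP mean 409-fold above the floor of 3 counts (edgeR, adjusted p = 0.0415). Here 0.096% of 14586 genes rose and 1.44% were fully apart. This call was lost on leaving out any of 7 of the 8 libraries. At 72 h the glomeruli of CLP mouse 2 held 1159 CPM, the highest microdissected value of the gene, against 21.9, 0 and 136 CPM in the other CLP mice and 0 in all sham mice (adjusted p = 0.0520, edgeR). The CLP library without a count therefore sat level with the sham libraries.

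At 4 h Saa3 was already high in glomeruli and venules without passing the test. Glomeruli of CLP mice had 262, 231, 103 and 143 CPM, against 2.62, 2.58, 2.48 and 4.72 CPM in sham mice, with a log2 fold change of 5.89 ± 1.60 (edgeR, adjusted p = 0.454). Venules of CLP mice had 590.1, 113, 114 and 56.5 CPM, against 1.65, 0.356, 0.520 and 8.08 CPM in sham mice, with a log2 fold change of 6.36 ± 1.56 (edgeR, adjusted p = 0.759). The groups were fully apart in both, as for 3.02% of genes in glomeruli and 1.84% in venules. With the 8 libraries of that comparison fitted alone, both passed (edgeR, adjusted p = 1.75e-06 and 0.00265).

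Arterioles and peritubular capillaries gave less clear values for Saa3. In arterioles at 24 h the CLP mice had 174, 388, 702 and 54.7 CPM, against 0, 0, 8.99 and 0.108 CPM in sham mice, a separation found for 1.12% of genes that did not pass (edgeR, log2 fold change 7.17 ± 2.36, adjusted p = 0.183). At 4 h the arterioles overlapped, since sham mouse 3 had 79.5 CPM beside 57.2, 33.1, 89.7 and 98.9 CPM in CLP mice, and 3 of 4 healthy mice had 26.6, 52.9 and 48.0 CPM. In peritubular capillaries, the vessels around the tubules, the 24 h CLP mice had 12.9, 19.96, 57.7 and 129 CPM and the sham mice none, a CLP mean 186-fold above the floor of 3 counts (edgeR, adjusted p = 0.112; such a separation held for 0.722% of genes). At 4 h the peritubular groups overlapped, with 27.6, 50.1, 2.97 and 13.5 CPM in CLP mice and 9.94, 0.195, 20.8 and 0.239 CPM in sham mice.

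At 72 h Saa3 had left most microdissected libraries, and 7 of 16 of the CLP mice still held counts, against 1 of 16 of the sham mice. In venules the CLP mice had 0, 64.4, 11.1 and 66.9 CPM and the sham mice 0, 0, 0 and 0.114 CPM (edgeR, adjusted p = 0.0822). In arterioles CLP mouse 2 alone had the gene, at 63.9 CPM, the same mouse that led in glomeruli. At that time Saa3 had no count in any of the 8 peritubular libraries of CLP and sham mice, 3 of which were the sparse ones.

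Saa1 rose in peritubular capillaries at 24 h. At 24 h its CLP values there were 101, 582, 205 and 637 CPM, and none of the 4 sham libraries had a count. Every CLP library carried the gene, with mouse 4 highest and mouse 1 lowest as in whole kidney. The mean of 381 ± 268 CPM was 1291-fold above the floor of 3 counts (edgeR, adjusted p = 0.0241; 0.034% of 11772 genes rose), a call that was lost without any one of 6 of the 8 libraries, namely each sham library and CLP mice 2 and 4. At 72 h the only peritubular value was 134 CPM in CLP mouse 4, one of the sparse libraries, and its call (edgeR, adjusted p = 0.00740; 1.8% of genes rose) rested on that library alone.

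Elsewhere Saa1 was uneven from mouse to mouse. Venules of the 24 h CLP mice had 0, 177, 49.0 and 605 CPM (edgeR, adjusted p = 0.257) and their glomeruli 0, 37.1, 105 and 87.4 CPM (edgeR, adjusted p = 0.195), with none in sham mice. Arterioles showed the gene in CLP mouse 3 alone, at 80.6 CPM. At 4 h the higher values came from single CLP mice, with 68.1 CPM in venules of mouse 2, 18.4 CPM in peritubular capillaries of mouse 1 and 11.5 CPM in glomeruli of mouse 2, while no sham library of that time exceeded 0.588 CPM. No sham library of 24 or 72 h in any compartment had a count of Saa1.

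Saa2 was found in the fewest microdissected libraries of CLP mice, with counts in 6 of 16 at 24 h, in none of 16 at 4 h and in none of 16 at 72 h. The 24 h values were 45.3 and 214 CPM in peritubular capillaries of mice 2 and 4, 31.9 CPM in venules of mouse 4, 12.3 CPM in glomeruli of mouse 4, 41.0 CPM in arterioles of mouse 1, and 1 count in glomeruli of mouse 1. It had counts in too few libraries to pass the filter for the test across genes in these compartments. With counts in at most 2 of 4 libraries of a group, no permutation test over these libraries could have passed either. Where a gene had no count, 3 counts per library is the level that counting error alone could have missed.

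**Figure D3:**
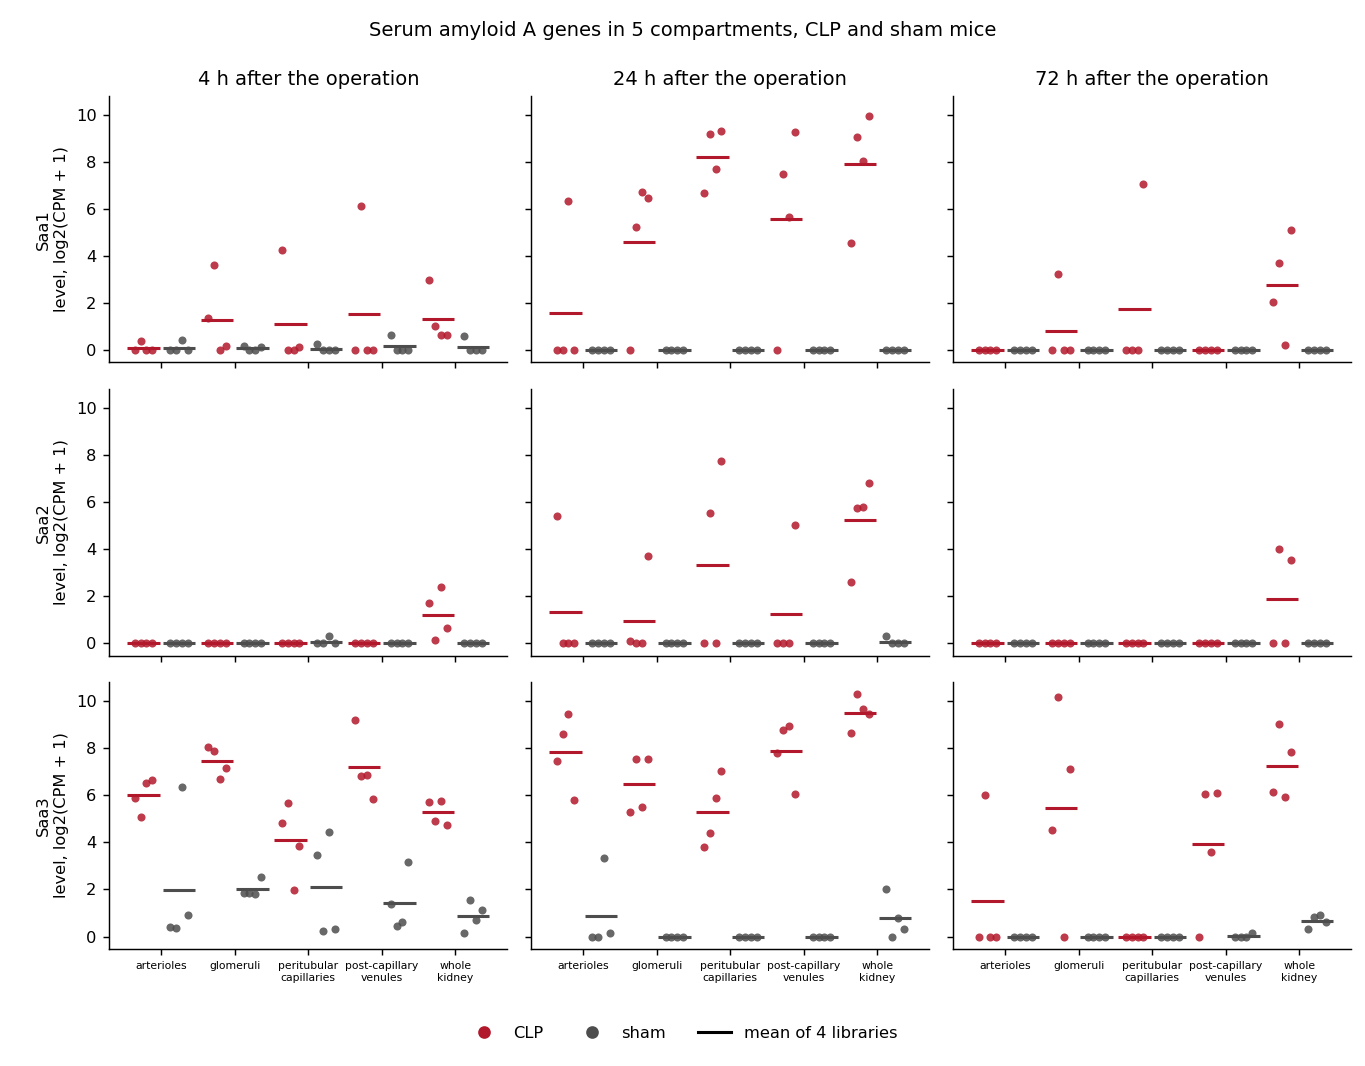
Levels of Saa1, Saa2 and Saa3 as log2(CPM + 1) in 4 microdissected compartments and whole kidney at 4, 24 and 72 h after the operation, 1 point per mouse, with CLP left of sham. Saa3 separates CLP from sham in every compartment at 24 h, and Saa1 separates them at that time in peritubular capillaries and whole kidney.

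Counts of other cells' markers differed between the compartments in which the genes were found. In glomeruli at 24 h, neutrophil markers summed to 868 to 2441 CPM in CLP mice and 42.2 to 200.1 CPM in sham mice. In venules they reached 14.2 to 199.5 CPM in CLP mice and 0 to 38.0 CPM in sham mice, in arterioles 0.663 to 209 and 0 to 0.113 CPM, and in peritubular capillaries 0 to 75.98 and 0 to 0.0608 CPM. Hepatocyte markers in peritubular capillaries at 24 h summed to 318 to 1124 CPM in CLP mice and 4.80 to 122 CPM in sham mice, with 4 of 8 markers at any count. Among them Apoc3 averaged 483 CPM in CLP and 6.22 CPM in sham mice (edgeR, adjusted p = 0.112), while albumin had 11.8, 0, 0 and 0 CPM in CLP mice and 34.2, 3.19, 35.9 and 0 CPM in sham mice. In arterioles at 24 h all 8 hepatocyte markers were at 0 in both groups. What these cells contributed to the Saa counts was not tested beyond these values.

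The labels' mouse numbers tie the 5 libraries of an animal together, and the order of the mice was alike in some compartments and not in others. At 24 h CLP mouse 1 had the lowest Saa1 in whole kidney and peritubular capillaries and no Saa1 in glomeruli, arterioles and venules. Mice 2 and 4 held the highest pair of Saa1 values in whole kidney, peritubular capillaries and venules. In glomeruli the order differed, with mouse 3 highest. Saa2 in arterioles was found only in mouse 1. For Saa3 at 24 h, mouse 4 was lowest in arterioles (54.7 CPM) and venules (64.7 CPM) and highest in peritubular capillaries (129 CPM). At 72 h mouse 2 had the highest Saa3 of its group in whole kidney, glomeruli and arterioles.

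**Figure D4:**
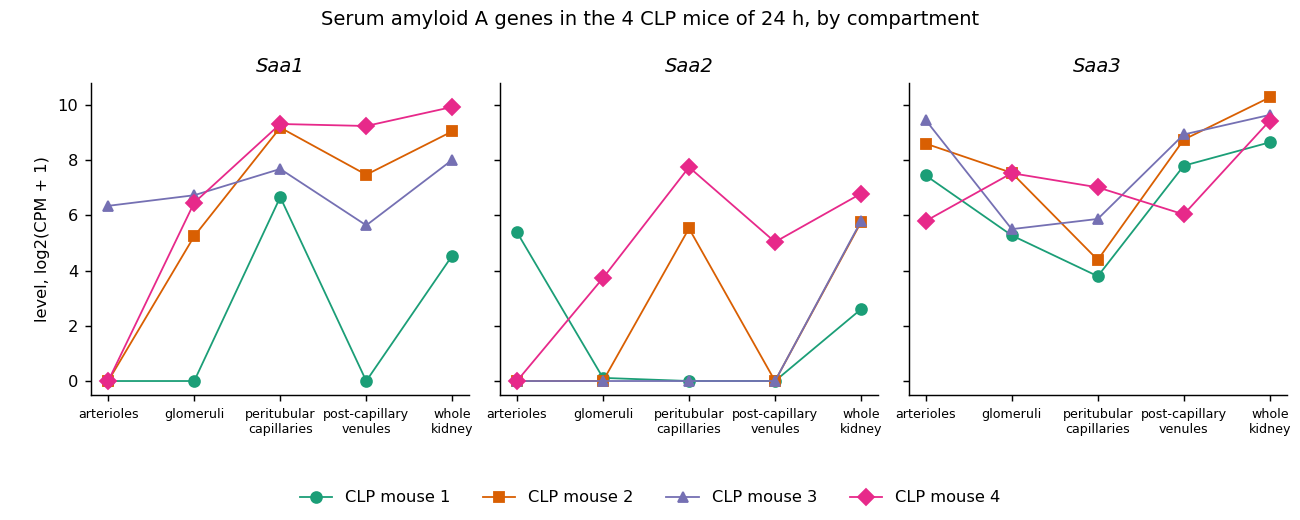
Levels of Saa1, Saa2 and Saa3 as log2(CPM + 1) in the 5 compartments of the 4 CLP mice of 24 h, with a line and marker for each mouse. For Saa1 the line of mouse 1 lies lowest or at 0 throughout, and mouse 4 is highest in whole kidney, peritubular capillaries and venules.

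The order of mean Saa3 levels among CLP mice changed with time. At 4 h venules (219 CPM) and glomeruli (185 CPM) led, followed by arterioles (69.7 CPM), whole kidney (39.9 CPM) and peritubular capillaries (23.6 CPM). At 24 h whole kidney (784 CPM) led arterioles (330 CPM), venules (302 CPM), glomeruli (113 CPM) and peritubular capillaries (54.8 CPM), each overlapping its neighbour. Whole kidney thus stood above all 4 vessel compartments in the mean at 24 h and below 3 of them at 4 h. For Saa1 at 24 h the order was whole kidney (447 CPM), peritubular capillaries (381 CPM), venules (208 CPM), glomeruli (57.5 CPM) and arterioles (20.1 CPM), again with every neighbouring pair overlapping. Library sizes were scaled within each compartment, so levels of different compartments are not on one scale. With library totals alone, mean Saa1 in peritubular capillaries (478 CPM) stood above whole kidney (429 CPM).

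Each microdissected compartment was then set against the mean of the other 3 within the CLP mice of one time, with the mouse as a block, a comparison added after the values had been seen. At 4 h Saa3 was lower in peritubular capillaries by this test, with a log2 difference of -2.62 ± 0.71 (edgeR, adjusted p = 0.0116; 3.86% of genes were lower), and the call was lost without mouse 1, 3 or 4 (adjusted p = 0.137, 0.0721 and 0.0592). At 24 h no compartment passed for Saa3 (edgeR, adjusted p of 0.193 to 0.700), and its peritubular difference was -2.08 ± 0.87, where 1.34% of genes were lower. That Saa3 difference passed without mouse 4 (adjusted p = 0.0293, edgeR). Saa1 did not pass either at 24 h, with a peritubular difference of 6.09 ± 2.61 (edgeR, adjusted p = 0.257; 1.12% of genes were higher). It passed, however, without mouse 1 (3.31, adjusted p = 0.00771), mouse 3 (9.48, adjusted p = 2.30e-14) or mouse 4 (7.98, adjusted p = 0.00176), and with no filter on low counts, so this result turned on single mice. Without 1 mouse Saa1 also passed as lower in arterioles (mouse 1 or 3) and as higher in venules (mouse 3). At 72 h Saa3 was higher in glomeruli by 7.38 ± 2.14 (edgeR, adjusted p = 0.0160), but 11.3% of all genes were higher there too, and the call was lost without mouse 2 or 4. The peritubular libraries, all at 0 for Saa3 at that time, were lower by the same test (adjusted p = 0.0265, edgeR), as were 11.4% of genes, and this call was lost without the same mice. A test of whether the CLP effect over sham differed between the 4 compartments gave no call for Saa3 at 4, 24 or 72 h (edgeR, adjusted p = 1, 0.675 and 1), where 0.021%, 0.161% and 1.48% of genes differed. The same test gave adjusted p = 1 for Saa1 at 4 h and no usable value at 24 h, where all sham libraries were at 0.

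Of the cytokines that induce the family, and their receptors, 8 of 12 genes could be tested in whole kidney. Of these, 1 rose at 4 h, 4 at 24 h and 1 at 72 h, where 1.69%, 3.04% and 1.74% of all genes tested rose. None fell, and the median log2 fold changes were 0.39, 0.63 and 0.51, beside 0.0014, 0.024 and 0.026 over all genes tested. Il1b, which encodes interleukin 1 beta, averaged 11.9 ± 2.61 CPM in CLP and 1.83 ± 0.993 CPM in sham kidneys at 4 h (log2 fold change 2.69 ± 0.42, edgeR, adjusted p = 0.000116) and rose again at 24 h by 2.03 ± 0.41. Tnf, tumour necrosis factor, rose at 24 h by 3.12 ± 0.93 (adjusted p = 0.0422) at low levels, 2.10 ± 0.401 CPM in CLP and 0.230 ± 0.165 CPM in sham kidneys. Il6 was too low for the test, at 0.828 CPM in CLP and 0 in sham kidneys at 4 h and at 0 in both groups later. Its receptor chain Il6ra rose at 24 h by 0.84 and at 72 h by 0.90 (edgeR, adjusted p = 0.0458 and 0.0362).

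Regulators of Saa transcription rose in the largest number at 4 h. Of 9 tested, 8 rose at 4 h, 6 at 24 h and 2 at 72 h, with medians of 1.40, 0.84 and 0.57. Over all genes tested, 1.69%, 3.04% and 1.74% rose. Cebpd, the C/EBP delta factor, rose at all 3 times, by 2.28, 1.76 and 1.32, and averaged 149 ± 36.9 CPM in CLP and 30.7 ± 8.65 CPM in sham kidneys at 4 h. Socs3, an inhibitor of cytokine signalling that STAT3 induces, rose by 3.29 at 4 h and 3.08 at 24 h, and Stat3 itself by 1.32 and 0.84. Nfkbia encodes a brake on NF-kB that NF-kB itself induces, and it rose by 1.40, 0.77 and 0.68 at the 3 times. Rela and Nfkb1, subunits of NF-kB, passed at 4 h only, with 1.05 and 0.90.

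Among 7 receptors of serum amyloid A, 2 rose at 4 h, 2 at 24 h and 1 at 72 h, when 1 fell, while 1.69%, 3.04% and 1.74% of all genes rose. Fpr2, the formyl peptide receptor of phagocytes, averaged 10.9 ± 1.62 CPM in CLP and 0.249 ± 0.306 CPM in sham kidneys at 4 h, and rose by 5.31 ± 0.50, 4.32 ± 0.46 and 3.25 ± 0.46 at the 3 times (edgeR, adjusted p = 4.75e-08, 1.68e-07 and 1.23e-05). Tlr2, a receptor for bacterial lipopeptides, rose by 2.32 at 4 h and 1.64 at 24 h. Cd36, a scavenger receptor, fell by 1.03 at 72 h, to 83.7 ± 19.7 CPM in CLP against 171 ± 18.1 CPM in sham kidneys, among 2.15% of genes that fell at that time. The medians over the receptors were 0.22, 0.16 and 0.44. Neutrophil markers rose beside Fpr2, with 6 of 8 tested higher at 4 h, 6 at 24 h and 7 at 72 h.

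Other acute-phase genes rose in larger numbers at the hour when Saa1 and Saa2 did. Of 18 tested, 4 rose at 4 h, 13 at 24 h and 8 at 72 h and none fell, with medians of 0.77, 4.11 and 2.16. The shares of all genes that rose were 1.69%, 3.04% and 1.74%. Lcn2, lipocalin 2, which binds bacterial iron carriers, averaged 345 ± 226 CPM in CLP and 3.97 ± 1.01 CPM in sham kidneys at 24 h (log2 fold change 6.43 ± 0.74, edgeR, adjusted p = 4.67e-06). Fgg, a chain of fibrinogen, averaged 588 ± 492 and 8.54 ± 1.82 CPM (log2 fold change 6.10 ± 0.72) and Hp, haptoglobin, 292 ± 207 and 9.74 ± 9.52 CPM (log2 fold change 4.91 ± 0.92) in CLP and sham kidneys at that time. Of 4 tested partners of Saa on high-density lipoprotein, of which Scarb1 is also among the receptors, Abca1, the cholesterol exporter, rose at 24 h by 1.12 and at 72 h by 1.26, and no other passed. Apoa1, the main protein of that lipoprotein, had a log2 fold change of 1.12 ± 0.59 at 24 h (edgeR, adjusted p = 0.374).

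Hepatocyte markers were listed beside the acute-phase genes because many of those genes are liver products. Of 7 tested, 2 rose at 24 h (3.04% of all genes did), Apoc3 by 2.52 and Apoh by 2.32, both apolipoproteins, and none passed at 4 h. At 72 h Apoc3 rose by 2.05 and Serpina1c, an antitrypsin, fell by 2.04. Alb had log2 fold changes of -0.45, -0.19 and -1.89 at the 3 times and passed at none (edgeR, adjusted p = 0.907, 0.928 and 0.0679).

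**Figure D5:**
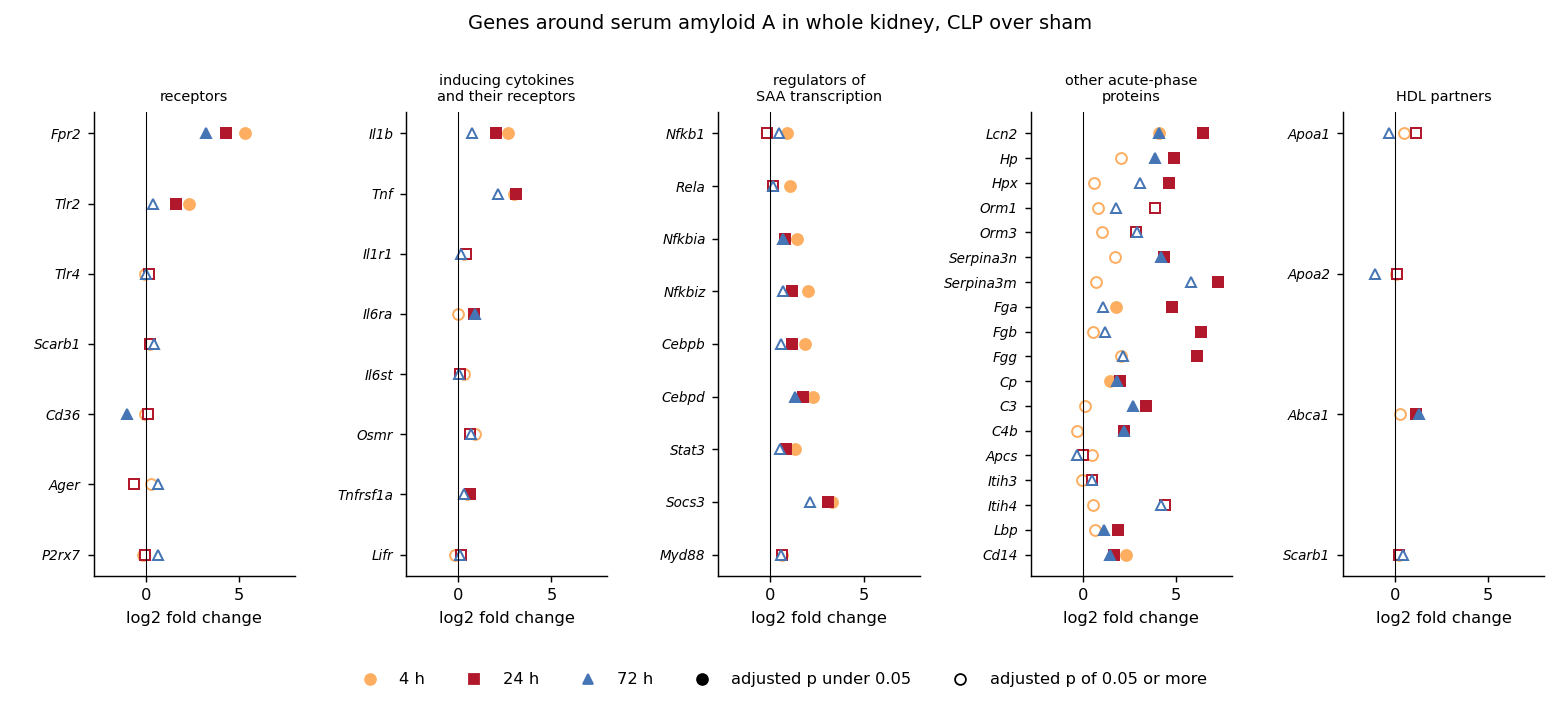
Log2 fold changes of CLP over sham in whole kidney for genes around serum amyloid A, grouped by role, with circles for 4 h, squares for 24 h and triangles for 72 h, filled where the adjusted p was under 0.05. Regulators such as Cebpd and Socs3 lie to the right at 4 h, and acute-phase genes such as Fgg and Lcn2 reach their largest values at 24 h.

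Across the 28 whole kidney libraries, the genes whose log2(CPM + 1) was most like each member were ranked by Pearson's r among genes averaging 5 CPM or more, as a description of libraries that share groups. For Saa1 the 6 leading genes were Saa2 (0.960), Fgg (0.936), Fgb (0.925), Bnip3 (0.916), Lbp (0.914) and Lrg1 (0.913). For Saa2 the same genes followed Saa1, with Fgg at 0.921 and Lrg1 at 0.915. For Saa3 the leaders included Cd72 (0.958), Lcn2 (0.952), Clec4a1 (0.932), Serpina3n (0.926) and Itgam (0.921), none of which led for Saa1 or Saa2. Fgb and Fgg are fibrinogen chains and Lbp binds bacterial lipopolysaccharide, whereas Cd72, Clec4a1 and Itgam are known from leukocytes. Saa3 correlated with Saa1 at 0.861 and with Saa2 at 0.862, which placed it at rank 14 and rank 10 in their rankings. The leading genes depended on the measure, since none of the 6 of Saa1 and 2 of the 6 of Saa3 remained with Spearman's rho.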

How the data were processed

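The authors deposited raw read counts per Ensembl gene, with no normalisation, for 34255 genes and 140 libraries. Per the submitters' processing notes, the tools named are featureCounts, HTSeq 0.13, STAR 2.7, SAMtools 1.9, MultiQC 1.7 and FastQC 0.11.8, with no role or order given here, and both GRCm39 and GRCm38.p6 are named as builds. Which build was used for alignment, which program gave the counts, and how reads matching more than 1 gene were treated is not given in the sources used here. Groups came from the labels. The count table writes 4 h for the healthy mice, which the labels put at 0 h.

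Counts were analysed in R 4.3.3 by edgeR 4.0.16, using its two-sided quasi-likelihood test after TMM scaling, with a robust fit and the filter filterByExpr at a minimum count of 10. The script was tested on data simulated for whole kidney only. That check did not cover the microdissected libraries, whose spread was larger. Each compartment had 1 fit of its 28 libraries, p-values were adjusted by Benjamini-Hochberg over all genes tested, and a gene was called at an adjusted p under 0.05. A mouse has the same number in every compartment, and compartments were compared with the mouse as a block. Replicate numbers of CLP and sham mice were not used as pairs, since these were different animals and in 0 of 15 comparisons were all 4 correlations of same-numbered residuals over 0.1. In whole kidney, however, 3 of the 4 were over 0.1 at 24 h (highest 0.438) and 2 at 72 h (highest 0.315). Folds against groups with no count used a floor of 3 counts per library. This floor covers counting error only, and in microdissected libraries a fold over it is not a lower bound on the change. Alternatives were DESeq2 1.42.0, other scaling factors, no filter, only the 8 libraries compared, and leaving out each library. Positions came from GENCODE M21, matched by identifier for 34185 genes, and upstream sequences from RefSeq for all 3 members by Ensembl identifier, since RefSeq lists Saa1 and Saa2 among each other's synonyms.

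The named genes were the 3 members, the other genes of the cluster, members of the lists by role, and the 6 genes most like each member. Of the genes most like Saa3, 1 is not reported here. The members and lists were chosen with earlier results of these data known, and gene lists describe counts and medians without a test of their own.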

Additional observations from a re-analysis of the deposited data

Results flagged for a closer look

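In 12 of the 42 groups of 4 libraries tested, 1 library stood far from the other 3, with its gap to the nearest of them, divided by the group's range, above Dixon's 95% critical value. Groups with very few counts of a member, such as Saa1 in whole kidney of 4 h sham mice (mean 0.136 CPM), were not among those tested. Chance alone flags about 1 in 20 groups of normally spread values, but a group with counts in only 1 library is always flagged. Most were single mice with counts where the rest had few or none. For Saa1 they were the CLP mice 1 in peritubular capillaries at 4 h (18.4 CPM), 2 in venules at 4 h (68.1 CPM), 3 in arterioles at 24 h (80.6 CPM), 2 in glomeruli at 72 h (8.48 CPM) and 4 in peritubular capillaries at 72 h (134 CPM). For Saa2 they were CLP mice of 24 h, with 41.0 CPM in arterioles of mouse 1, 12.3 CPM in glomeruli of mouse 4 and 31.9 CPM in venules of mouse 4. For Saa3 they were sham mouse 3 in arterioles at 4 h (79.5 CPM) and sham mouse 3 in arterioles at 24 h (8.99 CPM), sham mouse 4 in glomeruli at 4 h (4.72 CPM), and CLP mouse 2 in arterioles at 72 h (63.9 CPM). Sham mice 3 of 4 and 24 h are different animals.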

How the results depend on the processing

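Log2 fold changes against groups with no count are not bounds and are given only to compare settings. All calls of the 3 genes in whole kidney, CLP over sham, held under every setting except Saa1 at 24 h with only the 8 libraries compared (14.8, adjusted p = 0.115), where 295 genes were called in place of 789. That setting brought Saa3 at 4 h past the threshold in glomeruli (5.90) and venules (6.35). DESeq2 brought past it Saa2 and Saa1 in whole kidney at 72 h (7.96 and 8.88), the change of effect from 4 to 24 h for Saa3 and Saa1 (4.22 and 10.3), Saa3 in arterioles at 24 and 72 h (7.28 and 25.0), in glomeruli at 4 and 72 h (5.87 and 13.8), in peritubular capillaries at 24 h (11.7) and in venules at 4 and 72 h (6.51 and 10.2), and Saa1 in glomeruli at 24 and 72 h (26.9999 and 21.3) and venules at 24 h (28.6). With no filter the same held for Saa3 in arterioles at 72 h (10.4), glomeruli at 4 and 72 h (5.90 and 14.5) and venules at 4 and 72 h (6.40 and 9.88), for Saa1 at 24 h in glomeruli (11.997) and venules (13.9), and for Saa1 of CLP mice at 24 h in arterioles and peritubular capillaries against the other 3 compartments (-5.68 and 6.05). Among the DESeq2 and no-filter calls at 72 h, Saa3 in arterioles and Saa1 in glomeruli had counts in only 1 of 4 CLP libraries each. With library totals alone Saa3 in glomeruli at 24 h did not pass (12.95, adjusted p = 0.0531). Without the sparse libraries Saa1 in peritubular capillaries at 72 h had no count (0).

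Signs turned for Saa3 in sham against healthy kidneys at 4 h (DESeq2 -0.00837, library totals -0.011) and 24 h (library totals -0.041), and for Saa3 in arterioles against the other 3 compartments (4 h, library totals -0.18 and no mouse block -0.30; 72 h, no mouse block 1.57, against -1.84 with the block). With the replicate block, which pairs different animals by number, Saa3 at 72 against 24 h was -1.996 (adjusted p = 0.0497) and Saa3 in sham at 4 h against healthy -0.085, and it changed no other call of the members.

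Leaving out 1 library at a time gave these ranges of log2 fold change. In whole kidney they were 8.004 to 9.27 for Saa2 and 8.59 to 10.2 for Saa1 at 72 h, -2.73 to -1.53 for Saa3 at 72 against 24 h, 3.73 to 5.78 for its change of effect from 4 to 24 h, and, for sham against healthy, -0.53 to 0.38 for Saa3 at 4 h, -1.45 to 0.46 for Saa3 at 24 h, -1.48 to 3.34 for Saa1 at 4 h and -1.47 to 2.30 for Saa2 at 24 h. In glomeruli Saa3 ranged over 12.6 to 13.3 at 24 h and 11.8 to 14.95 at 72 h, and in venules over 14.1 to 14.8 at 24 h and 9.36 to 11.4 at 72 h. Saa1 ranged over -0.049 to 8.42, 14.5 to 15.1 and 0 to 11.7 in peritubular capillaries at 4, 24 and 72 h, and over -3.64 to 10.2 and 12.5 to 14.4 in venules at 4 and 24 h. For CLP mice against the other 3 compartments, Saa3 ranged over -0.43 to 0.66 in arterioles and -3.41 to -2.11 in peritubular capillaries at 4 h, -2.99 to -1.62 in peritubular capillaries at 24 h, and 6.22 to 8.93 in glomeruli, -12.6 to -7.31 in peritubular capillaries and 3.72 to 7.45 in venules at 72 h. At 24 h Saa1 ranged over -14.3 to -4.12 in arterioles, -3.05 to 0.52 in glomeruli, 3.31 to 9.48 in peritubular capillaries and -0.68 to 4.30 in venules. Leaving out 1 CLP mouse also brought past the threshold, over sham, Saa2 (mouse 1 or 3) and Saa1 (mouse 3) in whole kidney, Saa3 in glomeruli (mouse 1, 2 or 3) and Saa3 in venules (mouse 1) at 72 h, and Saa1 in venules (mouse 1) at 24 h, and, against the other compartments, Saa3 in venules at 72 h (mouse 1). The number of genes called in whole kidney at 4 h was 206 to 316. Of the 6 genes most like each member, 0 remained with Spearman's rho for Saa1, 2 for Saa2 and 2 for Saa3, and 3 for Saa2 and 0 for Saa3 among the 12 CLP libraries alone. The cause of these changes was not tested. Where a gene had no count, depth sets the floor of 3 counts per library.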
